A study of Saccharomyces cerevisiae with 4 samples.

Results

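Yeast stores phosphate in the vacuole as polyphosphate. Followed here were the polymerase subunit genes VTC1, VTC2, VTC3 and VTC4 and the polyphosphatase genes PPN1 and PPX1. PHM6, which encodes a protein of unknown function, completed the set of 7 genes. They were chosen by name, with earlier results of these data known. All 7 of the 7 were found on the array, with 1 spot each, among 5574 genes named there. The data were 4 two-colour spotted arrays of Saccharomyces cerevisiae, each with total RNA of lpz8 null cells in Cy5 and total RNA of wild-type cells in Cy3. The null cells had grown in low copper on 2 arrays and in high copper on the other 2, and each pair includes 1 array whose title marks it as a repeat. Because the series is titled for the transcription factor Haa1, lpz8 was taken to be HAA1. The labels and the title do not give the strain background, the copper concentrations, the copper in which the wild type was grown or whether cultures were separate. Dyes were not exchanged on any array, so a dye effect of a gene and the genotype cannot be told apart.

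Polyphosphate is a chain of phosphate units that serves the cell as a phosphate and energy reserve. The VTC complex in the vacuolar membrane makes it from ATP and passes the chain into the vacuole, and polyphosphatases cut it again. When phosphate is scarce, the transcription factor Pho4 turns on the PHO regulon, a set of genes for phosphate uptake and recovery that includes VTC genes, and PHM6 was named for its response to phosphate. Each value is a log2 ratio, null over wild type, after the median of its array was subtracted. Above 0 the level was higher in null cells. Base 2 and the direction, Cy5 over Cy3, were inferred and not stated in the labels. The share of cells that express a gene and its RNA per cell cannot be told apart in such ratios.

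The arrays held 7254 to 8409 values for 8832 spots, and low copper replicate 1 lacked the most, 17.9% of spots. Low copper replicate 1 had no HAA1 value, and the other 3 arrays, low copper replicate 2 and the high copper pair in order, gave -7.35, -6.96 and -4.15. On high copper replicate 1 a run of 528 spots, numbers 1657 to 2184, did not match its positions, and the spots of VTC4 and PHM6, numbers 1872 and 1764, lie in it. Within the run its Spearman correlation with the average of the remaining arrays was -0.014 when spots were matched by number, and 0.57 when each was matched to the spot 24 numbers later. Outside the run, matching by number gave 0.58. The remaining arrays, each treated in this way, gave 0.32 to 0.44 by number inside the run, where the average they were compared with includes the displaced array. Outside the run they gave 0.51 to 0.60. Values of VTC4 and PHM6 are therefore given as deposited and with the run moved by 24 spots. The other 5 genes lie outside the run.

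**Figure D1:**
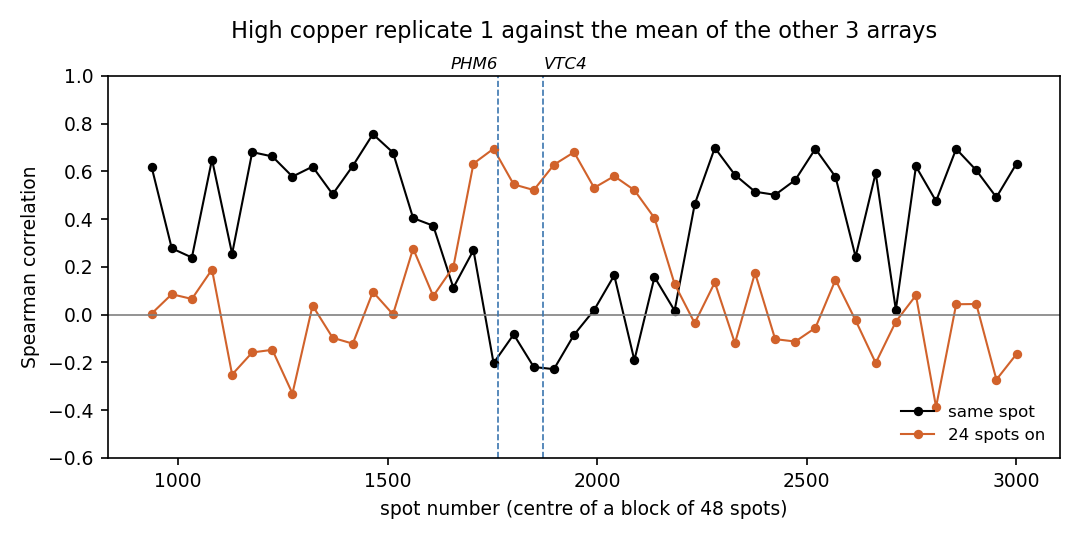
Spearman correlation (y axis) between high copper replicate 1 and the average of the remaining arrays in blocks of 48 spots, by spot number (x axis), matched by number (black) or to the spot 24 later (orange). Between spots 1657 and 2184 the black line falls to about 0 and the orange line rises; dashed lines mark the spots of PHM6 and VTC4, which lie inside.

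Among the polymerase genes, VTC1 and VTC3 rose in null cells over both copper conditions, VTC4 rose once the displaced run was moved, and VTC2 and both polyphosphatase genes did not pass the test. In the limma fit over 5137 genes, 2 of the 6 genes measured on all 4 arrays were higher at an adjusted p under 0.05 and 0 were lower, where 11.7% of all tested genes passed, 6.44% higher and 5.24% lower. With the run moved, 3 of 6 were higher and 0 lower, against 8.10% and 6.45% of 5148 genes. The median log2 ratio of the 6 genes was 0.36 as deposited and 0.52 with the run moved, beside -0.015 and -0.014 for all tested genes. Of the 6 genes, 3 were also past the unadjusted p of 0.05 as deposited, against 35.6% of all tested genes. Since the genes were chosen with earlier results of these data known, these shares and medians are a description.

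VTC1 encodes the small membrane subunit of the polymerase. Its log2 ratio was 1.33 and 1.61 on the low copper arrays and 1.10 and 1.03 on the high copper arrays. All 4 values lay above 1, and both low copper values lay above both high copper values, as in 27.1% of all tested genes. The mean was 1.27 ± 0.26 (SD, n = 4), or 2.40-fold, with a standard error of 0.071 in the fit and an adjusted p of 0.00758 from limma. By its mean it ranked 21 of 5137 tested genes. None of the 24 spots nearest to it on any array, 12 on either side, exceeded it.

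VTC3 encodes an accessory subunit with an SPX domain, a fold that binds inositol pyrophosphates. It stood at 0.33 and 0.61 in low copper and at 1.60 and 1.23 in high copper. Every value was above 0, and both high copper values lay above both low copper values, as in 25.3% of all tested genes. Its mean was 0.95 ± 0.58 (SD, n = 4), or 1.93-fold, the standard error of the fit 0.095 and the adjusted p 0.0224 from limma. The SD over 4 arrays holds the gap between the copper groups, and without a term for copper the adjusted p was 0.0693.

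VTC4 encodes the catalytic subunit, which joins the phosphates. As deposited it stood at 0.51 and 0.95 in low copper and at -0.27 and 0.85 in high copper. The value of -0.27 came from the displaced run, and the value that belongs to the spot after the move was 1.01. With it the 4 values ran from 0.51 to 1.01 and the copper groups overlapped. The mean was 0.51 ± 0.55 (SD, n = 4; limma adjusted p = 0.173) as deposited and 0.83 ± 0.22 (adjusted p = 0.0216), or 1.78-fold, with the run moved. Over the 3 arrays without high copper replicate 1 it was 0.77 ± 0.23 (SD, n = 3).

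VTC2 encodes the accessory subunit that takes the place of Vtc3 in a second form of the complex. It stood at 0.12 and -0.041 in low copper and at 0.38 on both high copper arrays. The low copper values lay on either side of 0, below both high copper values, an order seen in 25.3% of all tested genes. The mean was 0.21 ± 0.21 (SD, n = 4), with an interval of 0.051 to 0.37 (95%, before adjustment) and an adjusted p of 0.086. VTC3 exceeded VTC2 by 0.21, 0.66, 1.23 and 0.85 on low copper replicates 1 and 2 and high copper replicates 1 and 2. These differences are a description, since the pair was chosen with the values known.

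**Figure D2:**
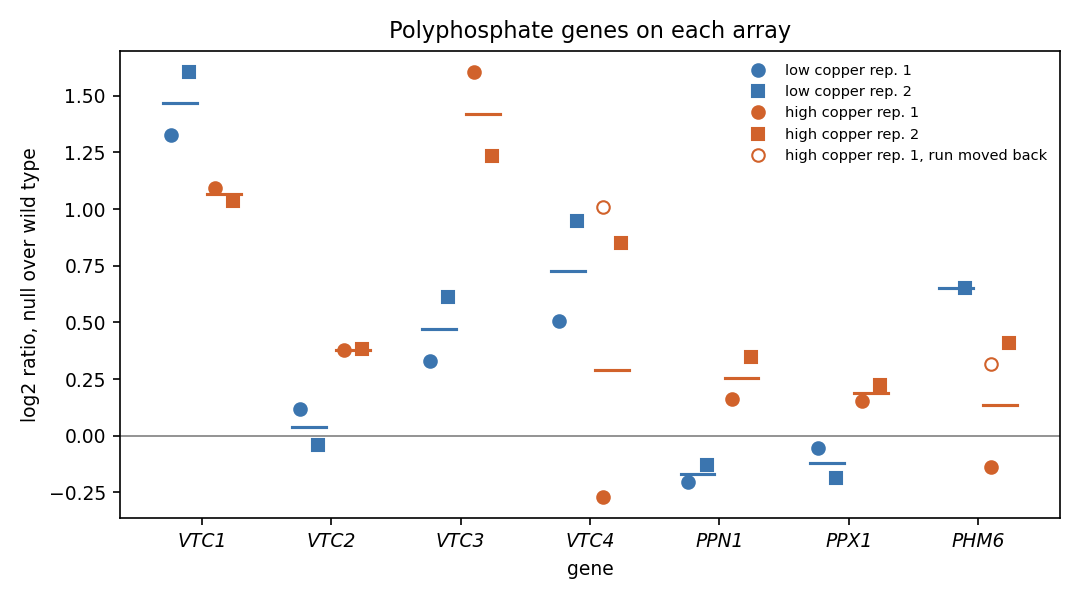
Log2 ratio of null over wild type (y axis) of each gene (x axis) on each of the 4 arrays; short lines are means of the 2 arrays of a copper condition as deposited, and open circles are high copper replicate 1 with the run moved. VTC1 lies above 1 on every array, VTC3 is higher in high copper, and PPN1 and PPX1 lie below 0 in low and above 0 in high copper.

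The polyphosphatase genes had means near 0 over both conditions. PPN1 encodes a vacuolar polyphosphatase that can cut within the chain. It stood at -0.20 and -0.13 in low copper and at 0.16 and 0.35 in high copper, with a mean of 0.043 ± 0.26 (SD, n = 4) and an adjusted p of 0.63. PPX1 encodes a cytosolic enzyme that removes phosphates from the chain end. It stood at -0.056 and -0.19 in low copper and at 0.15 and 0.22 in high copper, with a mean of 0.033 ± 0.19 (SD, n = 4) and an adjusted p of 0.701. For both genes each low copper value was below 0 and each high copper value above it, as in 7.03% of all tested genes. The intervals of the means (95%, before adjustment) were -0.12 to 0.21 for PPN1 and -0.12 to 0.19 for PPX1. The 24 spots nearest to PPN1 on the array had medians of 0.19 to 0.26 on the 4 arrays, above PPN1 on 3 of them, and their part in its values was not tested.

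PHM6 encodes a protein of unknown function. Low copper replicate 1 did not measure it. It stood at 0.65 on the other low copper array and at -0.14 and 0.41 on the high copper pair, in order. The value that belongs to its spot after the move was 0.32, so that all 3 values were then above 0. The mean over the 3 arrays was 0.31 ± 0.40 (SD, n = 3) as deposited and 0.46 ± 0.17 with the run moved. When limma was run with genes that had 3 or 4 values, and the copper conditions weighted equally, it was 0.39 with an adjusted p of 0.195 as deposited. With the run moved it was 0.51 with 0.0542, and the only low copper array stood for that condition.

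**Figure D3:**
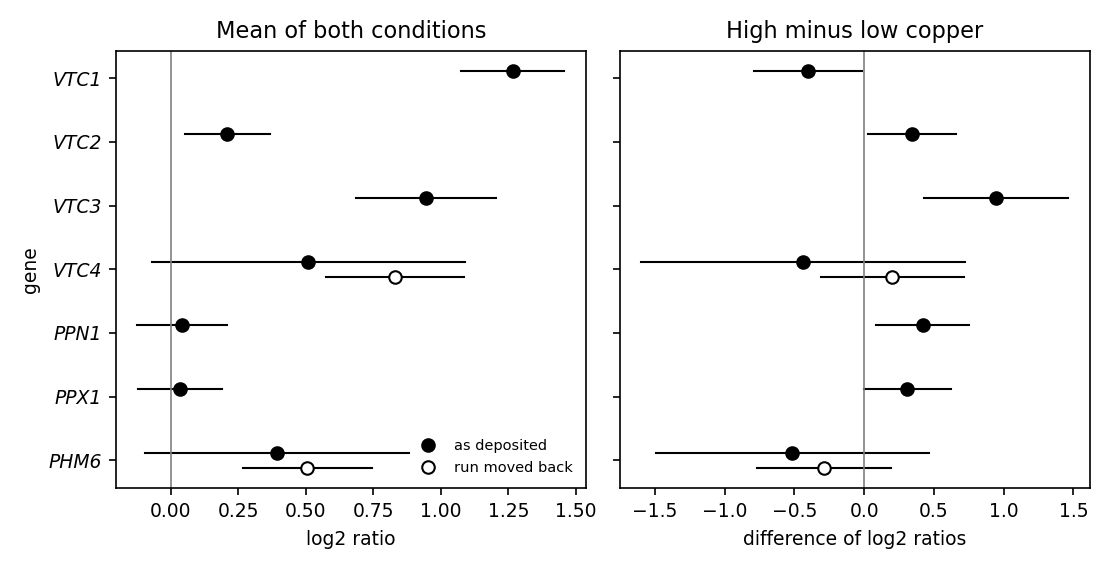
Fitted log2 ratio over both copper conditions (left) and high minus low copper difference (right) for each gene, with 95% intervals before adjustment for multiple tests; filled circles are values as deposited and open circles those with the run moved. VTC1 and VTC3 lie farthest above 0 on the left, and the intervals of VTC4 narrow with the run moved.

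Taken by condition, VTC1 was past the threshold in both copper conditions and VTC3 in high copper, while the test of the difference between conditions passed for neither. In low copper 1 of the 6 tested genes was higher and 0 were lower, VTC1 at 1.47 ± 0.20 (SD, n = 2; adjusted p = 0.0286 from limma), where 0.234% of all tested genes were higher and 0.428% lower. With the run moved 1 of 6 was higher, against 0.583%. VTC3 stood there at 0.47 ± 0.20 with an adjusted p of 0.117 and VTC4 at 0.73 ± 0.31 with 0.188, both as deposited. With the run moved the low copper mean of VTC4 stayed the same. Its standard error, shared by both conditions, went from 0.30 to 0.13 and its limma adjusted p to 0.0689. In high copper 2 of the 6 genes were higher, where 1.07% of all tested genes were. They were VTC3 at 1.42 ± 0.26 and VTC1 at 1.06 ± 0.043 (SD, n = 2), both with an adjusted p of 0.0304. With the run moved VTC4 joined them in high copper at 0.93 ± 0.11 with 0.0482, against 1.61% of all tested genes. That call was lost when genes with 3 values were also tested (adjusted p = 0.0628). From the high copper arrays alone VTC2 also passed, at 0.38 (adjusted p = 0.0323), beside VTC1 and VTC3. In that fit 898 of 5137 tested genes passed in either direction.

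For the difference between high and low copper, 0 of the 6 genes and 0% of 5137 tested genes passed an adjusted p of 0.05 in limma. With the run moved it was 0 of 6 and 0.0389%. At an unadjusted p under 0.05 there were 4 of the 6, against 15.4% of all tested genes. VTC3 was higher in high copper by 0.95 (interval 0.43 to 1.46, adjusted p = 0.256), PPN1 by 0.42 (0.088 to 0.75, 0.282) and VTC2 by 0.34 (0.027 to 0.66, 0.305). VTC1 differed the other way, by -0.40 (-0.79 to -0.017, adjusted p = 0.312). PPX1 stood 0.31 higher in high copper (-0.0024 to 0.62, 0.327). VTC4 differed by -0.44 (-1.60 to 0.72, adjusted p = 0.612) as deposited and by 0.20 (-0.31 to 0.71, 0.594) with the run moved. In VTC2, VTC3, PPN1 and PPX1 both high copper values lay above both low copper values, which held for 25.3% of all tested genes. In VTC1 they lay below, which held for 27.1%.

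VTC1 lay above VTC3 on both low copper arrays and below it on both high copper arrays. VTC1 minus VTC3 was 0.998 and 0.99 on the low copper arrays and -0.51 and -0.20 on the high copper arrays. VTC1 minus VTC4 was 0.82 and 0.66 in low copper and, with the run moved, 0.085 and 0.18 in high copper. The 4 VTC genes together had means of 0.57 and 0.78 in low copper and, with the run moved, 1.02 and 0.87 in high copper. It was 0.70 on high copper replicate 1 as deposited.

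These calls rested on the high copper pair. Without either high copper array 0 of the 6 genes and 0 of all tested genes passed in any condition, with VTC1 at 1.25 and 1.28 over both conditions (adjusted p = 0.0931 and 0.0935), and without low copper replicate 2 the difference of VTC3 passed at 1.09 (adjusted p = 0.0269) with 743 of all tested genes. In each of these fits the condition left with 1 array was assumed to vary like the other, whose pair supplied all the spread. The calls of VTC1 within a condition were also lost without centring, at 1.37 in low copper (adjusted p = 0.056) and 1.08 in high copper (0.0503).

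Of 8 genes with other roles in polyphosphate or with SPX domains 6 were tested as deposited, with 0 higher and 1 lower, and 7 with the run moved, with 1 higher and 1 lower. Among all tested genes the shares were 6.44% higher and 5.24% lower as deposited, and 8.10% and 6.45% with the run moved. The higher one was DDP1, which encodes a phosphohydrolase of inositol pyrophosphates and polyphosphate. It lies in the run and stood at 0.49, 0.65, 0.45 and 0.39 after the move, with a mean of 0.49 and an adjusted p of 0.0219. As deposited it had no value on high copper replicate 1 and an adjusted p of 0.0713 over 3 arrays. The lower one was SYG1, an SPX protein of the plasma membrane, at -0.48 with 4 values between -0.51 and -0.45 and an adjusted p of 0.0252.

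VTC5, a further subunit of the polymerase, had 2 spots, both in the stretch the displacement touches, and a mean of 0.15 as deposited (adjusted p = 0.236) and 0.23 after the move (0.0904). PPN2, a vacuolar polyphosphatase, stood at -0.03 (0.753). The vacuolar phosphate exporter gene PHO91 stood at -0.17 (0.232). The low-affinity transporter genes PHO90 and PHO87 stood at 0.11 (0.207) and -0.18 (0.141). GDE1, a glycerophosphodiesterase gene, had 3 values, at 0.48, 0.14 and -0.051.

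Of 12 other Pho4 targets, 8 were higher and 1 lower over both conditions as deposited, and 8 higher and 2 lower with the run moved. The 12 include PHO11 and PHO12, near-identical copies that are not separate measurements. Of all tested genes 6.44% were higher and 5.24% lower as deposited, and 8.10% and 6.45% with the run moved. The median was 0.77, and these targets too were chosen with earlier results of these data known. The 4 with the smallest p were PHO11 at 1.22, PHO5 at 0.98, SPL2 at 2.64 and PHO84 at 2.13, with adjusted p of 0.00753, 0.00921, 0.0103 and 0.0159. PHO5 and PHO11 encode secreted acid phosphatases, PHO84 the high-affinity phosphate transporter and SPL2 a regulator of phosphate uptake. The lower genes were GPP2, a glycerol phosphatase gene, at -0.64 and, after the move, the phosphatase gene PHM8 at -2.60. In the plot of low against high copper VTC1, at 1.27, lies beside PHO11 and well below PHO84 and SPL2. For the difference between high and low copper the median was -0.17 in the 12 targets, 0.33 in the 6 polyphosphate genes and 0.013 in all tested genes, with 0 of the 12 past the threshold.

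**Figure D4:**
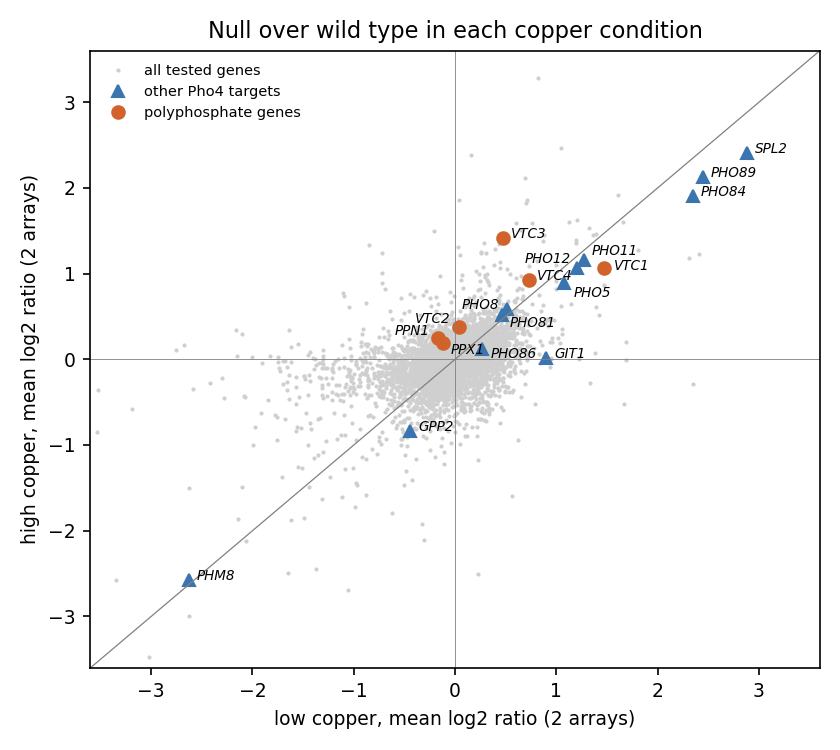
Mean log2 ratio in low copper (x axis) against high copper (y axis), 2 arrays each, for all tested genes as deposited (grey), and for the 6 polyphosphate genes (orange) and 12 other Pho4 targets (blue) with the run moved; 1 gene lies outside the axes. VTC3 lies above the diagonal, and VTC1 lies below it near PHO11.

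A list of 10 genes that signal phosphate state included the kinase and cyclin genes PHO85 and PHO80 and the inositol pyrophosphate kinase genes KCS1 and VIP1. Over both conditions 0 of the 10 passed in either direction, where 11.7% of all tested genes did, and their median was -0.048. PHO4 itself stood at -0.32 (adjusted p = 0.11) and KCS1, a mean of spots that disagreed, at -0.34 (0.0999), both as deposited. For PHO4, 1 of its 2 spots lies in the stretch the displacement touches. With the run moved its value on high copper replicate 1 went from -0.11 to -0.29. The vacuolar proton pump sets up the gradient across the membrane that holds the VTC complex. Of its 16 genes 1 was higher, a share near the 6.44% of all tested genes, with a median of 0.14. It was the membrane subunit gene VMA11 at 0.47 (adjusted p = 0.0273). With the run moved VMA3 also passed, at 0.33 (0.0498), where 8.10% of all tested genes were higher.

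By distance over the 4 arrays, the genes most like VTC1 among 5131 others were PHO11 (0.385 log2 units), PHO12 (0.586), the zinc transporter gene ZRT1 (0.598), the glucose transporter gene HXT2 (0.648) and PHO5 (0.677). PHO11 and PHO12 are near-identical copies and cannot count as separate measurements. The genes most like the mean of the 4 VTC genes with the run moved were MGA1, GLC3, SDP1, CUP1-1 and BAP2, at 0.117 to 0.296. Only BAP2 and CUP1-1 were also among the 5 nearest as deposited.

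Of the chromosomal neighbours of VTC1, VTC3 and VTC4, ALD5 alone passed the test over both conditions. Beside VTC1, TDA2 stood at 0.23 (interval -0.018 to 0.48, adjusted p = 0.159), with 0.45 in low copper (0.10 to 0.80, 0.117), and ALD5 fell, at -0.59 (0.0185). Beside VTC3, CTF19 stood at 0.32 (interval 0.045 to 0.59, adjusted p = 0.108), with 0.49 in high copper (0.10 to 0.88, 0.147). ULP1, also beside VTC3, had 3 values and stood at -0.11 (0.382) with the copper conditions weighted equally. Beside VTC4, MAD3 and RPC17 stood at -0.13 (0.162) and -0.11 (0.236). Next to VTC2, the meiosis gene MSH4 had 3 values of 3.23, 1.13 and 0.92. With the copper conditions weighted equally its mean was 2.13, and only 1 low copper array stood for that condition. By this mean MSH4 ranked 4 of 5537 genes with 3 or 4 values. SEC4, also beside VTC2, stood at 0.18 (limma adjusted p = 0.104). Beside PPN1, YHP1 and TSA2 stood at 0.19 (0.121) and -0.43 (0.1055). Beside PPX1, RPN10 and SMN1 stood at -0.021 (0.784) and -0.62 (0.192). Beside PHM6, RRP45 and MRX10 stood at 0.096 (0.30) and 0.32 (0.0608).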

How the data were processed

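The deposited table holds 1 log2 ratio per spot and array for 8832 spots. The authors' normalization was not given in the sources used here, and base 2 was inferred. Spots were named through the platform annotation and the RefSeq gene table of assembly R64: 6956 carried 1 gene, 0 several and 1876 none. From each array its median of the 6912 spots with 4 values was subtracted (-0.157 to 0.014). These complete spots were averaged by gene. A mean for each copper condition was estimated by lmFit and eBayes of limma (version 3.58.1; R version 4.3.3), with 2 residual and 2.22 prior degrees of freedom. Benjamini-Hochberg adjustment ran over all genes tested, and 0.05 was the threshold. The wild-type channel is the only control. Its spread between arrays enters each ratio and cannot be told apart from that of the null cells. Nothing placed the arrays in separate cultures, so p-values measure spread between arrays that may be technical replicates. The displaced run was bounded by the stretch of blocks of 24 spots where matching to the spot 24 later improved most. The fit was tested on simulated data with values independent between arrays. These held no dye effect, array effect or displaced run, so the fit was not tested against such faults. Genes named were all 7 members, the lists' genes with the smallest p, chromosomal neighbours and the 5 nearest by Euclidean distance. Members and lists were chosen with earlier results of these data known. Intensities were not used here, so signal over background is unknown, and the number of arrays limits the precision. Alternatives in centring, spread, spots, copper term, block and arrays left out were tried. Averaging all spots of a gene, and the moved run with genes on 3 arrays, were chosen after seeing the data.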

Additional observations from a re-analysis of the deposited data

Results flagged for a closer look

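PPN1 and PPX1 lay below 0 on both low copper arrays and above 0 on both high copper arrays, a difference of 0.42 and 0.31 between the conditions. The limma test of the difference did not pass for either gene (adjusted p = 0.282 and 0.327). The same pattern of signs was seen in 7.03% of the 5137 tested genes.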

How the results depend on the processing

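The count of genes past the threshold over both conditions, 2, was 1 without a copper term and 1 with the repeat arrays as a replicate block, where VTC1 passed and VTC3 did not (adjusted p = 0.0515). In low copper the count of 1 was 0 without centring, with arrays scaled to equal spread, with the replicate block and from the low copper arrays alone. In high copper the count of 2 was 1 without centring, 0 with the replicate block, 3 with the run moved, where VTC4 passed, and 3 from the high copper arrays alone, where VTC2 passed. With 1 array left out in turn the counts ran from 0 to 3 over both conditions, 0 to 1 in low copper, 0 to 3 in high copper and 0 to 1 for the difference. The repeat marks gave a correlation of 0.087 between deviations over 5137 genes. With 1 pair of arrays per condition, that value cannot tell whether the repeat arrays share a batch or culture. Counts of all tested genes over both conditions were 600 in the reported fit, 292 without a copper term, 36 with the block, 406 without centring, 894 with equal spread, 749 with the run moved, and 0 to 1940 with an array left out. In low copper they were 34, with 19 without centring, 61 with equal spread, 63 with the run moved and 0 with the block or the low copper arrays alone. In high copper they were 132, with 363 with equal spread, 78 with genes on 3 arrays added, 202 with the run moved, 898 from the high copper arrays alone and 0 with the block. For the difference they were 0, and 2 with the run moved. With an array left out they ran from 0 to 1438, 0 to 898 and 0 to 743. Signs turned for VTC2 in low copper without centring (-0.061), for VTC4 in the difference with the run moved (0.20), and over both conditions without centring for PPN1 (-0.0008) and PPX1 (-0.012), none past the threshold. With an array left out, VTC2 in low copper ran from -0.041 to 0.12, VTC4 in high copper from -0.27 to 0.85 and in the difference from -0.997 to 0.12, PPN1 over both conditions from -0.0022 to 0.089 and PPX1 from -0.0005 to 0.066. Apart from the displaced run, whose move changed the values themselves, the cause was not tested.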
